A study of Mus musculus with 26 samples.

Results

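Assays A44, A49, B13 and B14 are 4 of the 315 positions of a mouse microRNA (miRNA) panel. They were chosen by their measured values, high in tail-tip fibroblasts and low in induced pluripotent stem cells (iPSC) made from such fibroblasts or in embryonic stem cells (ESC). Their contrast between fibroblasts and pluripotent cells is therefore a description of the choice and carries no test. The files name assays by plate position and not by miRNA, so the assays keep their positions as names. For the same reason the labelled cell types could not be checked against marker miRNAs. Taking the letter of a position as its plate, B13 and B14 lie next to each other on plate B, and A44 and A49 lie on plate A.

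MicroRNAs are short RNAs that guide silencing complexes to partly matching messenger RNAs and lower the output of those messages. Differentiated cells such as fibroblasts carry sets of miRNAs that differ from those of pluripotent cells. Reprogramming replaces the fibroblast set with a pluripotent one. Some fibroblast miRNAs are also present in other differentiated tissues, while others are tied to fewer cell types. The 4 assays were followed through all cell types of the series on this question.

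Each miRNA was read by RT-qPCR with a stem-loop primer, which copies only the mature form, and a TaqMan probe. The value is the threshold cycle (Ct), so a higher Ct means less RNA, and a difference of 1 cycle is 1 unit on the log2 scale at full PCR efficiency. The 26 samples were 5 iPSC clones, 5 samples of tail-tip fibroblasts, 3 samples each of the ESC lines D3 and R1, 4 samples of iPSC treated with activin A, and 3 samples each of adult pancreatic islets and hepatocytes from C57BL/6 mice. Activin A, a ligand of the TGF-beta family, was given for 5 days at 100 ng/ml (the sample characteristics give this in ng/ul) to clones 2 and 3, with 2 samples per clone. Untreated iPSC and both ESC lines grew on inactivated mouse embryonic fibroblasts with leukemia inhibitory factor, whereas treated iPSC were taken off these feeders. The sources used here do not give the strain and age of the fibroblasts or the reprogramming method. Only the iPSC are labelled as separate clones. For the other groups separate cultures or animals are not stated, so p-values reflect only how these samples vary, and that spread may be technical. Between 187 and 276 assays per sample had a Ct below 35, the fewest in fibroblast replicate 5. In bulk RNA, fewer cells that express an miRNA and less of it per cell cannot be told apart.

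All 4 assays were readily measured. A49 and B14 had a Ct below 35 in 26 of 26 samples, B13 in 25 and A44 in 24. All 4 passed the detection filter in every comparison below. They were abundant in fibroblasts and fainter in pluripotent cells, but they parted ways in the adult tissues. On raw Ct, B13 and B14 read within the fibroblast range in islets and hepatocytes, a range whose upper end fibroblast replicate 5 set. A49 was high in fibroblasts alone, and A44 lay between.

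B14 was bright in fibroblasts and in both adult tissues. In fibroblast replicates 1 to 5 its Ct was 20.3, 21.2, 18.5, 22.1 and 26.2. In iPSC clones 1 to 5 it was 30.1, 26.8, 30.2, 29.1 and 27.7. Every iPSC clone thus lay above every fibroblast sample in Ct, by a margin of less than 1 cycle at the closest, since fibroblast replicate 5 reached 26.2. The ESC samples read 27.3, 29.05 and 29.04 in D3 and 32.7, 30.2 and 27.6 in R1. All 3 islet samples (20.7, 22.04 and 22.1) and all 3 hepatocyte samples (21.6, 22.4 and 22.1) fell within the range of the fibroblasts. Fibroblast replicate 5 set the upper end of that range, and the next highest fibroblast Ct was 22.1, in replicate 4. In treated iPSC the Ct of B14 stayed at the pluripotent level, with 28.0 and 28.8 in clone 2 and 27.9 and 27.1 in clone 3.

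B13, its neighbour on the plate, followed the same course. Its Ct in fibroblasts was 19.9, 20.1, 16.4, 21.1 and 25.8. In iPSC it was 27.2, 25.4 and 28.1 in clones 1 to 3 and 24.4 in clone 5, while clone 4 had no Ct. On raw Ct the groups overlapped, since fibroblast replicate 5 at 25.8 lay above clones 2 and 5. B13 read 25.7, 26.3 and 28.1 in D3 and 29.4, 27.4 and 26.1 in R1. Islets read 20.4, 21.6 and 22.2, and hepatocytes read 21.0, 21.2 and 21.6. These values again fell within the fibroblast range, though most lay above the 21.1 of fibroblast replicate 4. Only fibroblast replicate 5 lay above all of them. Treated iPSC had 26.7 and 26.6 in clone 2 and 26.7 and 25.3 in clone 3.

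A49 differed from this pair in the adult tissues. Its Ct was 19.3, 23.2, 16.7, 21.3 and 23.5 in fibroblasts, and 28.8, 25.3, 29.7, 28.5 and 25.7 in iPSC clones 1 to 5. These groups did not overlap. D3 had 26.2, 27.8 and 28.3, and R1 had 30.4, 28.5 and 25.8. Islets read 25.1, 24.3 and 27.0, and hepatocytes read 29.2, 29.1 and 29.5. No islet or hepatocyte sample reached the fibroblast range, and the hepatocytes were as high in Ct as the faintest iPSC clones. Treated iPSC had 27.4 and 26.1 in clone 2 and 25.0 and 24.9 in clone 3.

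A44 was uneven in pluripotent cells. Fibroblasts had a Ct of 21.2, 23.3, 19.9, 26.1 and 24.4. The iPSC clones spread from 25.6 in clone 2 to 32.9 in clone 4, with 27.3, 29.1 and 31.1 in clones 1, 3 and 5. Clone 2 lay below fibroblast replicate 4, so the raw values overlapped. ESC were more uneven still, with 26.1, 28.2 and no Ct in D3 and 29.6, 38.7 and 34.8 in R1. Islets, at 25.3, 24.5 and 26.6, and hepatocytes, at 26.1, 26.5 and 25.7, were tightly grouped between fibroblasts and most pluripotent samples. Treated iPSC had 27.1 and 26.6 in clone 2 and 30.8 and 26.7 in clone 3.

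**Figure D1:**
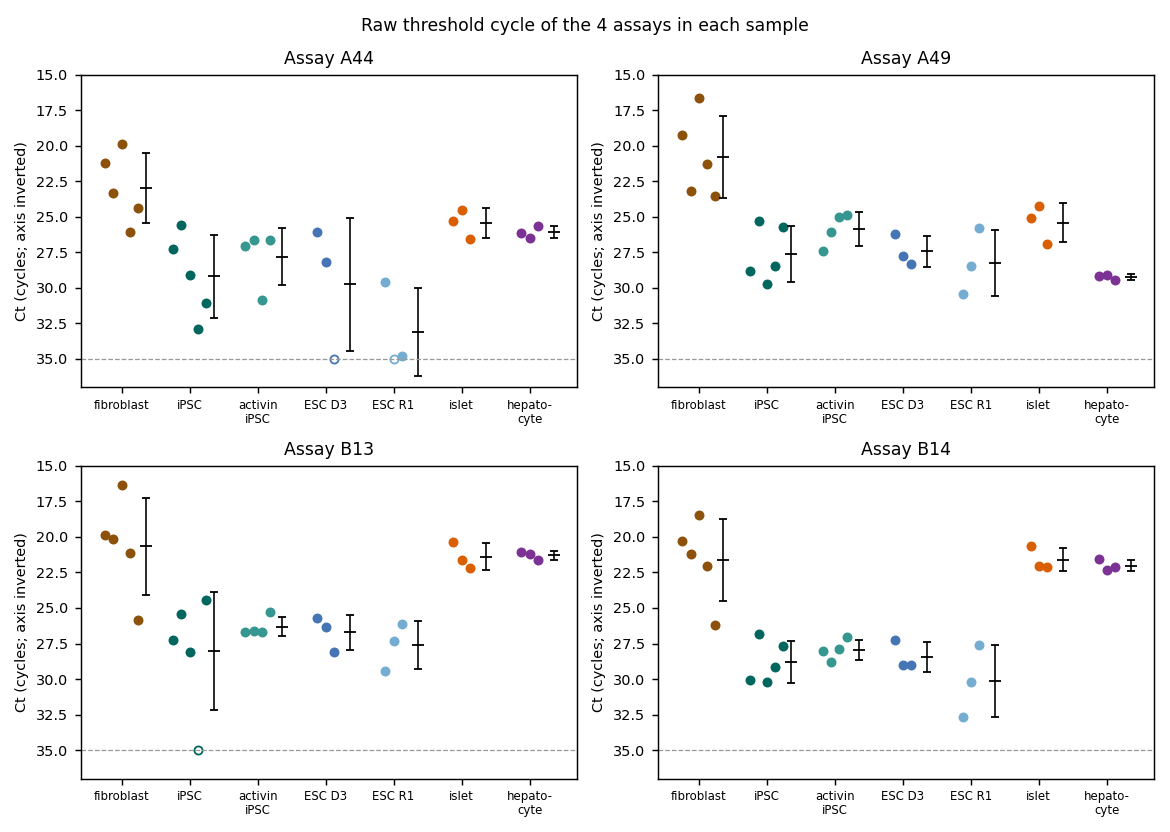
Raw Ct (cycles, axis inverted so that more RNA is higher) of each assay in all 26 samples by group; each point is 1 sample, open points had no Ct or one above 35 and are drawn at 35 (dashed line), and bars give mean ± SD. Islets and hepatocytes sit with the fibroblasts at B13 and B14, and below them at A49 and in part at A44.

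Raw Ct also carries the amount of amplifiable RNA. The mean Ct of the 87 assays of plates A and B that were below 35 in all 26 samples was lowest in fibroblast replicate 3, at 23.2, and highest in fibroblast replicate 5, at 29.9. B14 and B13 had their lowest and highest fibroblast Ct in the same samples. The level of an assay was therefore taken as this mean Ct minus the assay's Ct, in log2 units, with values above 35 or without a Ct set to 35. On this scale the SD of B14 among the 5 fibroblast samples was 0.709, against 2.89 in raw Ct, and that of B13 was 1.11 against 3.39. The SD of A49 went from 2.87 to 1.22 and that of A44 from 2.46 to 1.86. Against the authors' own reference, the small nuclear RNA RNU6, A49 was even more uniform (SD 0.508), whereas B13 (2.19) and B14 (1.85) were less so. RNU6 values were recovered from the authors' deposited differences for 20 samples and not for ESC. They link fibroblasts, iPSC and treated iPSC to each other, and islets to hepatocytes. They do not link these tissues to the fibroblasts or iPSC.

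By level, B14 stood at 4.67 ± 0.71 in fibroblasts (SD, n = 5), 4.41 ± 0.42 in hepatocytes (SD, n = 3) and 3.998 ± 0.46 in islets (SD, n = 3). These 3 groups overlapped and their neighbours in the order differed by less than the larger SD. Islet replicate 2, at 3.49, lay below the lowest fibroblast level of 3.64. A step of 5.29 log2 units then led down to iPSC, at -1.29 ± 1.02 (SD, n = 5), with no overlap. D3 (-1.29 ± 0.91), treated iPSC (-1.67 ± 0.79) and R1 (-2.19 ± 2.27) followed without a difference beyond their spread.

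B13 kept the same order at the top. It stood at 5.66 ± 1.11 in fibroblasts (SD, n = 5), 5.13 ± 0.59 in hepatocytes and 4.21 ± 0.25 in islets (SD, n = 3 each). Islet replicate 2, at 3.92, lay below the lowest fibroblast level of 4.04. Hepatocytes and islets did not overlap there and lay 0.92 apart, more than the larger SD of 0.59. This difference had a limma adjusted p of 0.703, and relative to RNU6 it had the opposite sign (-2.29). The next group was D3 at 0.43 ± 1.34, 3.78 below islets and without overlap. R1, treated iPSC and untreated iPSC came last, between 0.34 and -0.53, and overlapped each other. The iPSC value had an SD of 3.68, which clone 4 set by its missing Ct.

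A49 was at 5.53 ± 1.22 in fibroblasts (SD, n = 5). The next group, treated iPSC at 0.43 ± 1.18 (SD, n = 4 samples of 2 clones), lay 5.10 lower and did not overlap. Islets (0.17 ± 0.97), iPSC (-0.11 ± 1.47), D3 (-0.28 ± 1.04) and R1 (-0.28 ± 2.03) were indistinguishable from their neighbours. Hepatocytes had the lowest level, -2.82 ± 0.75 (SD, n = 3), which was 2.54 below R1 though R1 replicate 1, at -2.43, fell among them.

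A44 was at 3.34 ± 1.86 in fibroblasts (SD, n = 5), 3.01 above hepatocytes (0.33 ± 0.92), with which fibroblast replicate 4, at 0.42, overlapped. Islets were at 0.13 ± 0.80. Treated iPSC (-1.51 ± 1.69), iPSC (-1.69 ± 2.74), D3 (-2.61 ± 4.73) and R1 (-5.16 ± 3.15) formed a run in which no neighbours differed by more than the larger SD. Treated iPSC lay below islets in every sample, by a difference of means of 1.64, within the larger SD of 1.69. They nearly touched, with a highest treated level of -0.552 and a lowest islet level of -0.543.

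**Figure D2:**
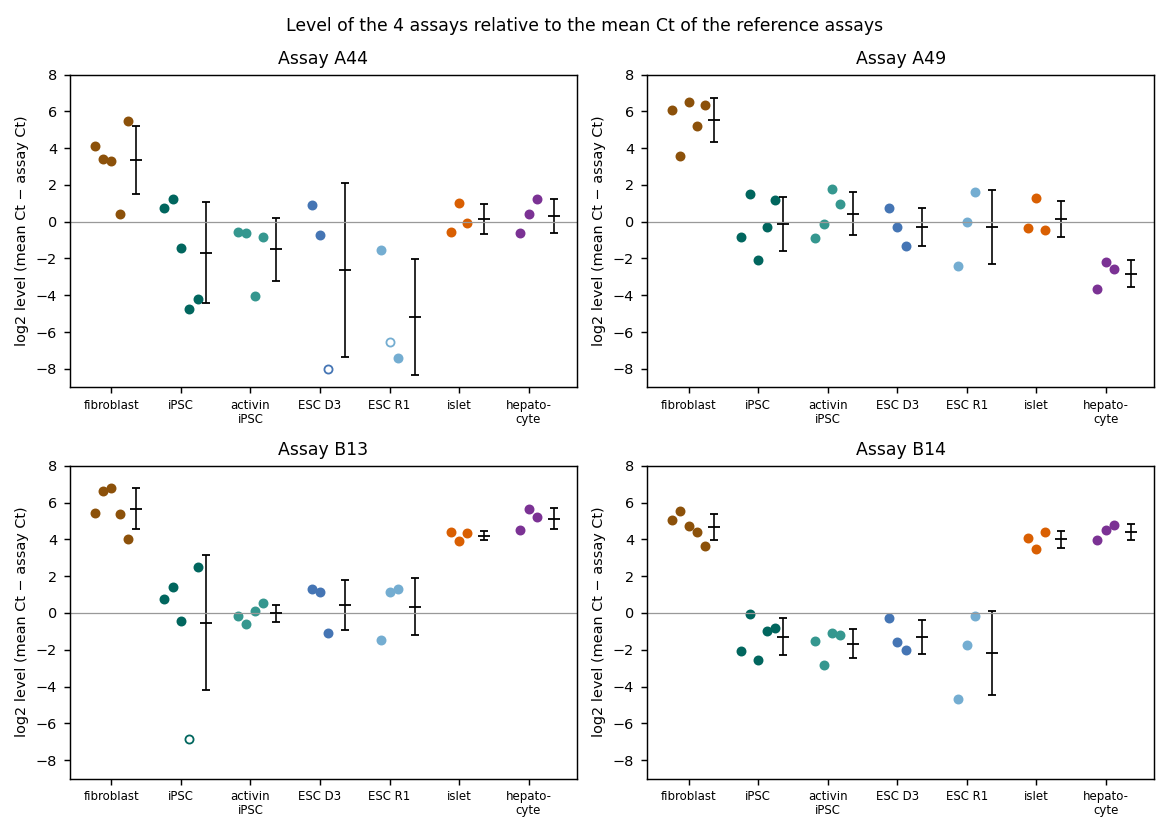
Level of each assay (mean Ct of the reference assays minus assay Ct, log2 units) by group; points are samples, open points rest on the limit of 35, and bars give mean ± SD. At B14 the fibroblast, islet and hepatocyte samples lie above 3.4 and every other sample lies below 0, while at A49 the fibroblasts alone lie above 3.5.

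Set against fibroblasts, the iPSC values restate how the assays were chosen and are given as sizes. The log2 fold change over fibroblasts in iPSC, relative to RNU6, was -9.18 for B13 (SE 1.56), -8.95 for B14 (SE 1.14), -8.62 for A49 (SE 0.96) and -8.02 for A44 (SE 1.30). Among 271 assays these were the 1st, 2nd, 3rd and 9th lowest values, and the median of all assays was -1.85. Relative to the mean Ct they were -6.19 for B13, -5.96 for B14, -5.64 for A49 and -5.03 for A44, with a median of all assays of 0.67. B13 was at -7.58 relative to RNU6 without clone 4. The authors' deposited table, positive where iPSC have less RNA, gives the 4 assays as 7.58 (B13), 8.95 (B14), 8.62 (A49) and 8.02 (A44). Limma called 35.4% of all assays lower in iPSC relative to RNU6, a contrast that the choice of the 4 had used.

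ESC over fibroblasts, relative to the mean Ct, gave -7.23 for A44 (SE 1.46), -6.41 for B14 (SE 0.66), -5.81 for A49 (SE 0.79) and -5.27 for B13 (SE 1.15). The median of all 276 assays was 0.71, and 19.2% were called lower in ESC. Both contrasts share the 5 fibroblast samples. The ESC value of A44 rests in part on samples at the limit of 35, and was -5.54 with missing values left out.

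Adult tissues split the 4 assays. Since the fibroblast values had been used to choose them, these fold changes are also given without a test. They are relative to the mean Ct, since the recovered RNU6 does not link the tissues to fibroblasts. Islets over fibroblasts gave -0.68 for B14 (SE 0.79), -1.45 for B13 (SE 1.39), -3.21 for A44 (SE 1.76) and -5.36 for A49 (SE 0.95), against a median of 0.57 over 279 assays. Hepatocytes over fibroblasts gave -0.27 for B14 (SE 0.79), -0.52 for B13 (SE 1.39), -3.01 for A44 (SE 1.76) and -8.35 for A49 (SE 0.95), against a median of -0.15 over 262 assays. The values of B13 and B14 in hepatocytes were below their SE, and with the mean Ct over all plates they turned to 0.30 and 0.55. The value of A49 in hepatocytes lay further from fibroblasts than those in iPSC (-5.64) and ESC (-5.81), a difference that was not tested.

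**Figure D3:**
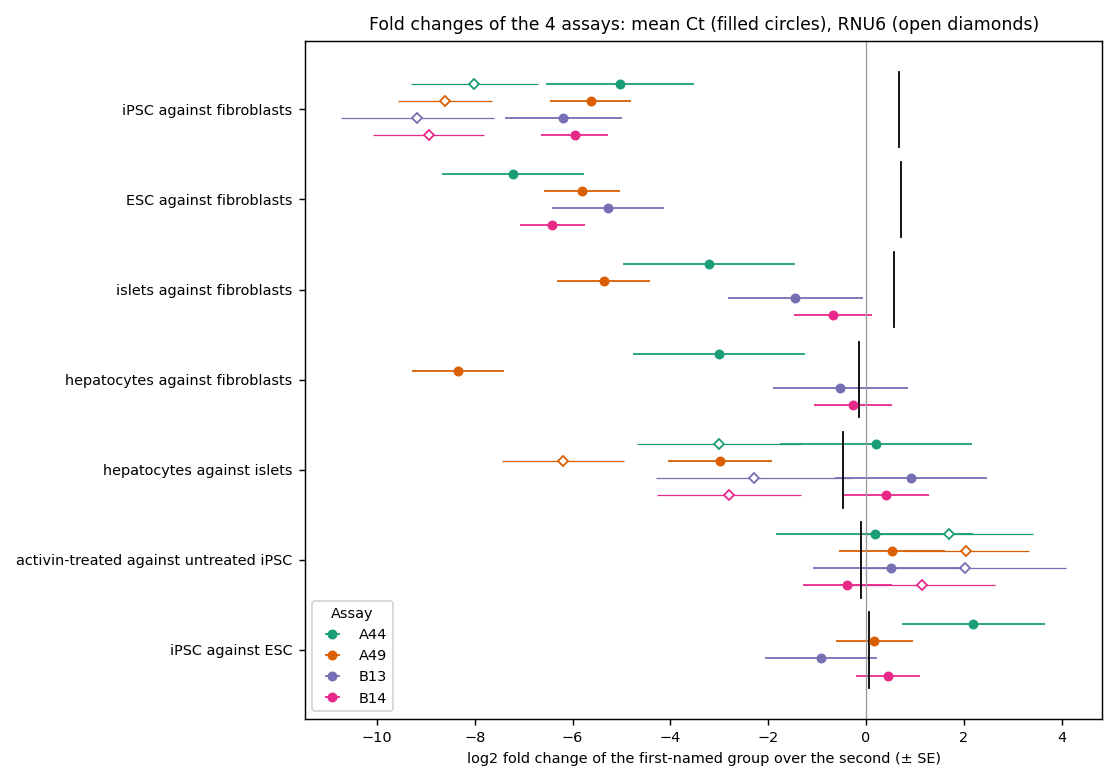
Log2 fold change of the first-named group over the second for the 4 assays, with SE, relative to the mean Ct (filled circles) and, where available, to RNU6 (open diamonds); short black lines mark the median of all assays tested relative to the mean Ct. B13 and B14 lie far left of the median in pluripotent cells over fibroblasts. In hepatocytes both lie near 0, and in islets B14 is at -0.68 and B13 at -1.45, left of the median of 0.57. A49 is left in every contrast with fibroblasts and between the tissues.

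Hepatocytes and islets played no part in the choice, so their difference was tested. A49 was lower in hepatocytes than in islets, with Ct values of 29.1 to 29.5 against 24.3 to 27.0 and no overlap. Its log2 fold change was -6.20 relative to RNU6 (SE 1.24, limma adjusted p 0.00068) and -2.99 relative to the mean Ct (SE 1.06, limma adjusted p 0.0314). The level was lower in all 3 hepatocyte samples than in all 3 islet samples on both scales. How many of all assays separated in this way was not counted, so the separation does not set A49 apart. Relative to RNU6, A49 had the 59th lowest value of 276 assays. The share of assays called relative to the mean Ct was not counted either. A49 lost the call when all plates shared a mean Ct (-2.66, limma adjusted p 0.0533) and with quantile normalization (-2.04, limma adjusted p 0.206).

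The other 3 assays did not pass the threshold of 0.05. Relative to RNU6 they gave log2 fold changes of -3.01 for A44 (95% interval -6.52 to 0.50, limma adjusted p 0.144), -2.81 for B14 (-5.89 to 0.28, limma adjusted p 0.127) and -2.29 for B13 (-6.49 to 1.91, limma adjusted p 0.357). Relative to the mean Ct all 3 had the opposite sign, at 0.20, 0.41 and 0.92. All 276 assays had a median of -3.42 with RNU6 and -0.46 with the mean Ct, so that A44, B13 and B14 lay near the middle of the panel. Limma called 43.8% of the assays relative to RNU6, beside which 1 of 4 is no excess. Islet replicate 3 moved the RNU6 scale, since its recovered RNU6 was 4.40 cycles against -0.07 and -0.76 in replicates 1 and 2. Without it A49 was at -5.36 (limma adjusted p 0.005). B14 was called without islet replicate 2 (-4.01, limma adjusted p 0.0393).

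The activin samples addressed a first step towards endoderm. None of the 4 passed the threshold. Treated over untreated iPSC gave a log2 fold change relative to RNU6 of 2.05 for A49 (95% interval -0.62 to 4.73, limma adjusted p 0.384), 2.02 for B13 (-2.32 to 6.37, 0.594), 1.69 for A44 (-1.93 to 5.31, 0.594) and 1.14 for B14 (-2.04 to 4.31, 0.672). The median of all 284 assays was 1.68, and limma called 0% of them, with 35 at an unadjusted p under 0.05. Relative to the mean Ct, B14 had the opposite sign (-0.38). B13 was at 0.43 relative to RNU6 without clone 4, which lacked a Ct. The untreated clones had been used to choose the assays, for being low, and the treated samples had not. Such a choice can by itself raise treated over untreated values, so these p-values are not independent of it. The intervals leave room for rises of several log2 units. Even so, no treated sample of B14 or B13 came near the islet and hepatocyte levels. The highest treated level was -1.10 for B14 and 0.56 for B13, against lowest tissue levels of 3.49 and 3.92.

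Feeder fibroblasts were present in untreated iPSC and ESC and absent from the treated cultures, so that treatment and feeder removal cannot be told apart. Levels in treated and untreated iPSC differed by less than the larger SD for all 4 assays. They were 0.43 and -0.11 for A49, -0.02 and -0.53 for B13, -1.51 and -1.69 for A44, and -1.67 and -1.29 for B14. Without clone 4 the untreated mean Ct of B13 was 26.3, the same as the treated mean of 26.3. The share of feeder RNA in the untreated samples was not tested.

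The treated clones lay on opposite sides of their untreated values at A49, and relative to the mean Ct also at B13 and B14. For A49 in clone 2 the treated samples lay 0.40 and 1.61 log2 units below the untreated clone relative to RNU6, and in clone 3 they lay 5.40 and 4.75 above it. Relative to the mean Ct its differences were -2.39 and -1.59 in clone 2 and 3.85 and 3.03 in clone 3. On that scale B13 was at -1.58 and -1.98 in clone 2 and at 0.55 and 1.00 in clone 3. B14 was at -1.51 and -2.79 in clone 2 and at 1.45 and 1.34 in clone 3. Relative to RNU6, B13 and B14 had both signs within clone 2. Before treatment A49 had a Ct of 25.3 in clone 2 and 29.7 in clone 3, the lowest and the highest of the 5 clones, and each clone had 1 untreated sample. The response of clone 3 minus that of clone 2, compared because the split had been seen, was 6.08 for A49 relative to RNU6 (limma adjusted p 0.994). Each untreated clone is a single sample, so the error in this fit comes from treated duplicates and from how samples of other groups spread. The difference was 4.19 for B14, 3.20 for B13 and 1.45 for A44, with the same limma adjusted p of 0.994. Of all assays 0.352% were called, none of them among the 4.

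**Figure D4:**
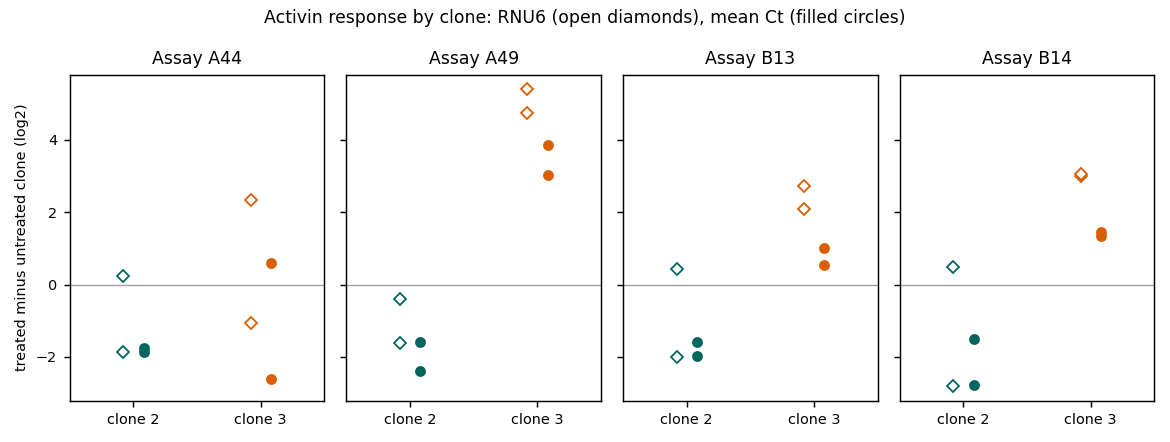
Level of each treated sample minus that of its untreated clone (log2) for clones 2 and 3, relative to RNU6 (open diamonds) and to the mean Ct (filled circles). A49 lay above the untreated value in both treated samples of clone 3 and below it in both of clone 2. B13 and B14 did the same relative to the mean Ct, while A44 had both signs within clone 3.

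Between iPSC and ESC none of the 4 assays differed past the threshold. Values of both groups had been used to choose the assays, each for being low against fibroblasts, so this comparison is not independent of the choice. Relative to the mean Ct the log2 fold change of iPSC over ESC was 0.17 for A49 (95% interval -1.47 to 1.81), 0.45 for B14 (-0.92 to 1.82), -0.92 for B13 (-3.31 to 1.48) and 2.19 for A44 (-0.84 to 5.23), each with a limma adjusted p of 0.996. For A49 and B14 the intervals lay within 2 log2 units, a 4-fold difference, on either side of 0. Since the choice favoured assays low in these groups, the intervals are descriptions and no evidence of likeness. For B13 and A44 larger differences are compatible with the spread. B13 was at 0.66 without clone 4, whose missing Ct set the sign, and A44 was at 0.51 with missing values left out. Limma called 0% of 273 assays, and 20 had an unadjusted p under 0.05.

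The ESC lines were likewise not separated. D3 over R1 was 2.56 for A44 (95% interval -1.54 to 6.66), 0.90 for B14 (-0.95 to 2.75), 0.10 for B13 (-3.13 to 3.33) and 0.01 for A49 (-2.21 to 2.22), with limma adjusted p of 1 for all 4. Limma called 0% of 273 assays there too, with 3 at an unadjusted p under 0.05. A44 ranged from 0.80 without D3 replicate 1 to 5.25 without D3 replicate 3. With A44 both lines were split within themselves. D3 replicates 1 and 2 had levels of 0.90 and -0.73 and replicate 3 had no Ct, while R1 replicate 1 was at -1.55 and replicates 2 and 3 were at -6.53 (set by the limit of 35) and -7.40.

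A difference between 2 assays of one sample needs no reference, since both share the sample's RNA input. Where the assays lie on different plates, as A49 and B14 do, the gap may also hold a difference between plates, which was not tested. Assays differ in efficiency, so only changes of such a gap between groups can be read, and the gaps were chosen after their values were seen. The Ct of A49 minus that of B14 was -0.86 ± 1.75 cycles in fibroblasts (SD, n = 5), -1.18 ± 0.62 in iPSC (SD, n = 5), -2.10 ± 1.03 in treated iPSC (SD, n = 4), -1.01 ± 0.29 in D3 and -1.91 ± 0.29 in R1 (SD, n = 3 each). In islets it was 4.42, 2.21 and 4.87, and in hepatocytes 7.60, 6.73 and 7.36. All 6 tissue samples lay above all 20 others, of which fibroblast replicate 2 was the highest at 1.97. Hepatocytes exceeded islets by 3.39 cycles without overlap, with a two-sided exact permutation p of 0.1, the smallest that 3 against 3 samples allow. B14 minus B13 and A49 minus A44 had the same exact permutation p of 0.1, and A44 minus B14 had 0.9. As the gaps had been seen first, these p-values are descriptions only. The likeness of A49 minus B14 in fibroblasts and pluripotent cells follows from choosing both assays on those groups and supports nothing. The tissues were not used in choosing the assays.

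B14 minus B13 was a narrower gap. It was 0.21 ± 0.27 cycles in islets, 0.73 ± 0.37 in hepatocytes (SD, n = 3 each) and 0.98 ± 0.70 in fibroblasts (SD, n = 5). In pluripotent cells its means were larger, at 2.41 ± 0.81 in iPSC (SD, n = 4, clone 4 lacking B13), 1.64 ± 0.46 in treated iPSC (SD, n = 4), 1.72 ± 0.91 in D3 and 2.53 ± 0.89 in R1 (SD, n = 3 each). Pluripotent samples overlapped with the others, since fibroblast replicate 3 reached 2.09 and D3 replicate 3 was at 0.91.

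**Figure D5:**
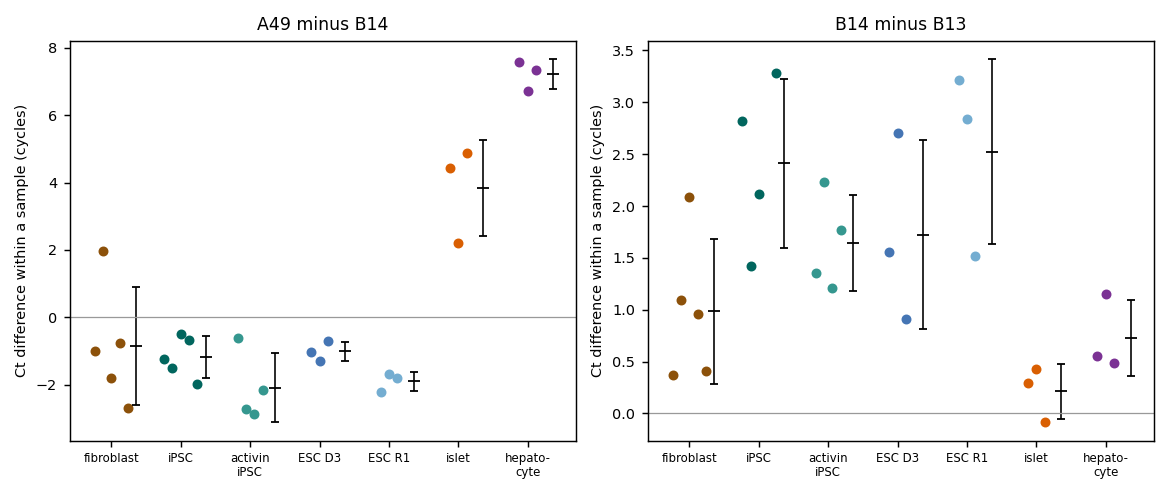
Ct difference within a sample (cycles) for A49 minus B14 and for B14 minus B13, by group; points are samples and bars give mean ± SD. For A49 minus B14 the islet samples (2.21 to 4.87) and the hepatocyte samples (6.73 to 7.60) stand above all others.

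Across the 26 samples the levels of B13 and B14 correlated with r = 0.849, and with r = 0.966 where missing values were left out. These points share sample groups and a reference, and the values are descriptions. Without the 5 fibroblast samples r was 0.777 for B13 and B14, and A49 no longer ran with the others (r = -0.182 with B14, -0.158 with B13 and -0.205 with A44, against 0.414, 0.403 and 0.449 over all samples). A44 kept r = 0.449 with B13 and 0.388 with B14 without fibroblasts. After the group means were removed, r was 0.353 for B13 and B14 and 0.603 for A49 and B14.

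The assays most like B14 among 267 were C22 (r = 0.971 over 26 samples), B07 (0.955) and B12 (0.923). C22 had levels of 3.01 ± 0.68 in fibroblasts (SD, n = 5), 3.20 ± 0.65 in hepatocytes and 2.84 ± 0.39 in islets (SD, n = 3 each), and of -2.55 ± 1.46 in iPSC (SD, n = 5). C22 lies on another plate and was measured against that plate's reference assays. C22 (0.886) and B07 (0.873) were also the assays most like B13, followed by C53 (0.85). B36 was most like A49 (r = 0.883), with a level of -0.58 ± 1.31 in fibroblasts, -4.66 ± 1.87 in iPSC (SD, n = 5 each) and -8.44 ± 0.54 in hepatocytes (SD, n = 3), where its mean Ct was 34.9. A50 (0.849) and C27 (0.845) came next. These r values include the contrast of fibroblasts and pluripotent cells that chose the members. Without the fibroblasts, r with A49 was 0.78 for B36, 0.544 for A50 and 0.458 for C27. C27 also lacked the low hepatocyte level of A49, at -0.85 in hepatocytes against -2.15 in iPSC. With B14, r without the fibroblasts stayed at 0.962 for C22, 0.941 for B07 and 0.926 for B12. For A44 the closest were A41 (0.734), A33 (0.727) and C93 (0.689), so no assay tracked it as closely.

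Plate neighbours were read as context. B12, beside B13, had a Ct of 25.1 ± 3.29 in fibroblasts and 30.4 ± 1.64 in iPSC (SD, n = 5 each), and of 24.6 ± 1.01 in islets and 24.5 ± 1.00 in hepatocytes (SD, n = 3 each). B15, beside B14, was below 35 in 1 of 5 samples of fibroblasts and in 0 of 5 iPSC clones. A50, beside A49, had 29.6 ± 2.74 in fibroblasts (SD, n = 5), 30.6 ± 1.68 in islets and 33.8 ± 1.79 in hepatocytes (SD, n = 3 each). A48, on the other side, was below 35 in 3 of 5 fibroblast samples and in 3 of 3 islet samples, at 27.6 ± 1.21 (SD, n = 3) there. A43 and A45 flank A44. A43 had a Ct of 25.4 ± 0.65 in islets (SD, n = 3) and was below 35 in 4 of 5 fibroblast samples. A45 had 24.2 ± 0.92 in hepatocytes (SD, n = 3) and 22.9, 25.1, 21.5, 33.6 and 26.1 in the fibroblasts, among which replicate 4 stood far from the others.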

How the data were processed

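The deposited Ct table, raw threshold cycles treated as a score with no normalization, holds 315 assay positions in 26 samples, and 950 of its 8190 values are missing. Reverse transcription used 5 ng of total RNA, followed by 40 PCR cycles for 303 miRNAs with RNU6 as the reference, per the labels' protocols. The sources used here give no threshold settings. The authors' deposited differences are on a log2 scale, as normalized Ct of the first group minus the second, although per the file headers they are 2 to the power of minus the difference. RNU6 was recovered from them by least squares per plate set (A and B, C, D; 885 equations, largest residual 4.0e-09 cycles) and tested on simulated data.

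Levels were reference Ct minus assay Ct, with missing values and those above 35 set to 35. RNU6 was the reference for hepatocytes against islets, activin and iPSC against fibroblasts, and the mean Ct of assays below 35 in all samples (87 on plates A and B) for the others. Limma 3.58.1 (lmFit, eBayes) in R 4.3.3 was fitted over all groups and all assays with a Ct below 35 in at least 50% of either group, treated samples averaged per clone, with Benjamini-Hochberg adjustment at 0.05. Each comparison was rerun with other references, limits of 32 and 40, other filters and each sample left out. Named assays were the 4 members, the 3 with the highest Pearson r to each, and their plate neighbours. The members and lists were chosen with earlier results of these data known. Files were read and plots drawn in Python 3.11.15 (matplotlib 3.10.9, numpy 2.4.6, pandas 2.3.3). Same-numbered samples were not taken as pairs, since their deviations correlated between -0.0792 and 0.314 for iPSC and fibroblasts and between -0.0636 and 0.157 for hepatocytes and islets.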

Additional observations from a re-analysis of the deposited data

Results flagged for a closer look

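Of the 16 combinations of an assay and a group of 4 to 6 samples that were checked for a sample standing apart, A44 in treated iPSC had one. Replicate 1 of treated clone 3 had a level of -4.04 relative to the mean Ct, against -0.55 to -0.82 in the other 3 treated samples. Chance flags about 1 in 20 such groups. The responses of A49 to activin had opposite directions in the clones, below the untreated value in both samples of clone 2 and above it in both of clone 3. B13 and B14 showed the same split relative to the mean Ct only. For A49 the responses differed by 6.08 log2 units relative to RNU6, with a limma adjusted p of 0.994, and each clone had a single untreated sample.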

How the results depend on the processing

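For hepatocytes against islets, the signs of A44, B13 and B14 turned with the mean Ct of the plate set (0.20, 0.92 and 0.41) and with the mean Ct over all plates (0.53, 1.25 and 0.73), and A44 also with quantile normalization (0.31). The call of A49 ended with the mean Ct over all plates (-2.66), with quantile normalization (-2.04) and with the replicate block (-6.20, limma adjusted p 0.0782), which is given only because the samples share numbers. No other call changed with a block. Leaving out each sample, A49 lay between -6.89 and -5.36 and B14 between -4.01 and -1.45. For activin, B14 turned to -0.38, -0.46 and -0.52 with the mean Ct of the set, the mean Ct over all plates and quantile normalization, and A44 to -0.10 with the replicate block by clone, while B13 was at 0.43 without iPSC replicate 4 or with missing values left out. For iPSC against ESC, B13 was at 0.66 with missing values left out. Leaving out each sample gave 0.85 to 3.10 for A44, -0.36 to 0.66 for A49, -1.67 to 0.66 for B13 and -0.17 to 0.95 for B14. For D3 against R1 these ranges were 0.80 to 5.25 for A44, -1.07 to 0.95 for A49, -0.79 to 0.87 for B13 and -0.34 to 1.90 for B14. Hepatocytes over fibroblasts turned to 0.30 for B13 and 0.55 for B14 with the mean Ct over all plates. Without the fibroblasts, the correlation turned to -0.205 for A44 and A49, -0.158 for A49 and B13 and -0.182 for A49 and B14. The cause of these changes was not tested. In iPSC and ESC over fibroblasts, the direction of all 4 assays held under each alternative run. A Ct near 35 is imprecise, which limits A44 in ESC.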
